A study of Mus musculus with 8 samples.

Results

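The genes followed here encode 8 proteins that RPE cells and other epithelia release: transthyretin (*Ttr*), retinol-binding protein 4 (*Rbp4*), apolipoprotein E (*Apoe*), clusterin (*Clu*), autotaxin (*Enpp2*), cystatin C (*Cst3*), lipocalin-type prostaglandin D synthase (*Ptgds*) and the matrix glycoprotein SPARC (*Sparc*). They were chosen by name from the 31053 genes listed for each library, as secreted proteins read as abundant in these same libraries, so their levels are given as a description and not as a test. Expression is given as counts relative to library size (CPM), scaled by edgeR's TMM factors. All 8 reached 1 CPM in 4 or more of the 8 libraries and were among the 12889 genes compared between genotypes. Of the 8, *Ttr*, *Clu*, *Cst3* and *Apoe* rose in *Bbs8*-/- RPE, *Enpp2* fell, and *Ptgds*, *Sparc* and *Rbp4* did not pass the threshold. The description as abundant held for all of them except *Rbp4*, which was at or near the limit of detection in every library.

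The RPE is the monolayer between the photoreceptors and the choroidal vessels, and it secretes proteins on both its faces. Transthyretin carries thyroxine and, bound to retinol-binding protein, takes part in retinol transport in blood and in the eye. Apolipoprotein E and clusterin bind lipids and misfolded proteins outside the cell, and both are found in deposits beneath ageing RPE. Autotaxin is a secreted lysophospholipase that makes lysophosphatidic acid. Cystatin C inhibits cysteine cathepsins, the *Ptgds* product both makes prostaglandin and carries small lipophilic molecules as a lipocalin, and SPARC binds collagen.

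Total RNA came from RPE isolated at P29 from C57/Bl6 mice, 4 without *Bbs8* (*Bbs8*-/-, gene *Ttc8*) and 4 wild-type littermates (*Bbs8*+/+), with no treatment in either group and sex not determined. *Bbs8* encodes a subunit of the BBSome, a complex that moves membrane proteins into and out of cilia. The *Bbs8*-/- line lacks the gene in all tissues, so that the neighbouring retina and the rest of the eye were mutant together with the RPE. RPE was freed from eyecups with trypsin after lens and retina had been taken away, each animal was a biological replicate, and 30 ng of RNA per library was primed on the poly-A tail with the QuantSeq 3′ kit and read as single ends of 100 bp.

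Gene counts totalled 2389835 to 3093428 per library, and 3 counts, taken as the floor of detection, were worth 0.970 to 1.26 CPM. *Ttc8* was at 35.5 to 58.9 CPM in *Bbs8*+/+ and 1.79 to 6.16 CPM in *Bbs8*-/- libraries, a log2 fold change of −3.34 (SE 0.294; adjusted p = 2.47e-11 with edgeR's quasi-likelihood test) with no overlap between genotypes. *Bbs8*+/+ library 1 stood apart from the rest. Among the 3286 genes averaging 50 CPM or more, 42 lay below 50% of the mean of the other libraries of its genotype, against 0 to 3 in every other library, and *Cst3* was low there too. Where a call, an overlap or the order of the 8 genes rests on it, the value without it is given as well, an alternative chosen after the data were seen. Across all genes tested, 704 (5.46%) were higher and 877 (6.8%) were lower in *Bbs8*-/-, 12.3% in either direction, and the median log2 fold change was 0.02.

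The libraries held RNA of other tissues beside RPE. Summed over 15 RPE markers, expression was 20988 to 21482 CPM in *Bbs8*+/+ and 20210 to 20866 CPM in *Bbs8*-/- libraries, with every marker detected. The genotypes did not overlap in that sum, and of the 14 RPE markers tested 4 were higher and 2 lower, so values set against it rest on genes that differed in part. The sum over 22 photoreceptor markers was 58293 to 62742 CPM in *Bbs8*+/+ and 24492 to 24938 CPM in *Bbs8*-/-, with 16 genes lower and 5 higher, the latter the cone genes *Gnb3*, *Pde6h*, *Opn1mw*, *Opn1sw* and *Gnat2*. Lens markers (18 genes) summed to 3383 to 3618 CPM against 467 to 522 CPM, and erythrocyte markers (9 genes) to 5210.0 to 5759 CPM against 2041 to 2288 CPM. Reactive glia markers (11 genes) went the other way, from 314 to 441 CPM up to 2480 to 2681 CPM, with 8 of the 10 tested higher. Müller glia markers (12 genes, without *Apoe* and *Clu*) summed to 4971 to 5105 CPM in *Bbs8*+/+ and 5612 to 5976 CPM in *Bbs8*-/-. Of these 12 genes, all tested, 3 were higher and 0 lower. *Rlbp1*, also an RPE marker and not called, held 1839 ± 61.5 CPM of the sum in *Bbs8*+/+ and 1889 ± 56.7 CPM in *Bbs8*-/-. The sums for microglia and macrophages, fibroblasts, endothelium, melanocytes and ciliary and iris epithelium overlapped between genotypes. Of the last list *Best2* and *Zic2* were at 0 counts in all libraries. The overlap of the fibroblast sum rested on *Bbs8*+/+ library 1, at 1165 CPM. Without that library the fibroblast sum was 1443 to 1568 CPM in *Bbs8*+/+ against 1120 to 1280 CPM in *Bbs8*-/-, with no overlap.

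**Figure D1:**
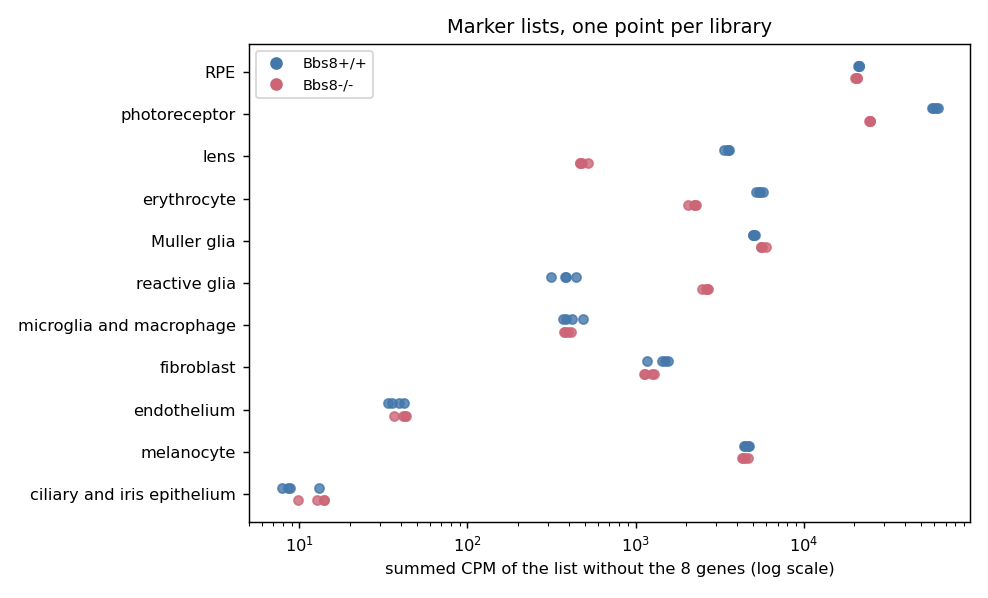
Summed CPM (x axis, log scale) of each marker list (y axis) without the secreted protein genes, with 1 point per library, blue for *Bbs8*+/+ and red for *Bbs8*-/-. The photoreceptor, lens and erythrocyte sums were lower in all *Bbs8*-/- libraries, although 5 cone genes of the first list were higher, and the reactive glia sum was higher. The RPE sums did not overlap either, at a ratio of 0.967 between genotypes.

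In the RefSeq table of mouse promoters (GRCm38.p6), 5 of the 8 genes had a window from 250 bases before to 50 after a transcription start. *Apoe* and *Cst3*, the genes with windows whose counts rose in *Bbs8*-/-, are shown. Both windows lie on the minus strand, at chr7:19699139-19699438 and chr2:148875463-148875762, and are printed 5′ to 3′. Capitals mark matches, on either strand, to any of 5 short motifs: TATAAA (of core promoters), CACGTG (palindromic E-box), CATGTG (core of the M-box), TAATCC (core bound by OTX2 and CRX) and GGGCGG (GC box).
Apoe: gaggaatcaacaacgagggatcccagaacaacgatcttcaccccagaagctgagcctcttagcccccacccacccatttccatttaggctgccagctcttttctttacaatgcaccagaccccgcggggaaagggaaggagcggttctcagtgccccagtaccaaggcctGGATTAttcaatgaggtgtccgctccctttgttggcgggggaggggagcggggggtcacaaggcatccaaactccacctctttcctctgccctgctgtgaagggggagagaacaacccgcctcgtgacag
Cst3: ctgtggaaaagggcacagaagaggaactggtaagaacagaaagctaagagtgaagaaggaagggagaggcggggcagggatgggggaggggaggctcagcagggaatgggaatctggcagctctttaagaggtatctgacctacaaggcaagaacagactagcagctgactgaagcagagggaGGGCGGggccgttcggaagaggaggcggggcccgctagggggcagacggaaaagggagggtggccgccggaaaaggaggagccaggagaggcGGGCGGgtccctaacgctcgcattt
The *Apoe* window held 1 match, to TAATCC in reverse, whose first base was 80 bases before the start. TAATCC was in 7.06% of all 32851 windows. The *Cst3* window held GGGCGG starting 67 bases before and at base 26 after the start, a motif in 35.7% of windows. Neither printed window held TATAAA, which 13.6% of windows had, nor either E-box, which 7.15% (CACGTG) and 14.2% (CATGTG) had. GC content was 57.7% in *Apoe* and 60.3% in *Cst3*, against a median of 52.7%. Of the other windows, those of *Ptgds* and *Sparc* held no match. A second of the 3 *Apoe* windows held TATAAA starting 96 bases before its start, and in reverse 100 bases before. In *Rbp4*, 1 of the 2 windows held TATAAA 28 bases before its start and GGGCGG in reverse 114 and 99 bases before. A match is a string of letters and not a bound site.

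*Ttr* (ENSMUSG00000061808, chromosome 18, 20665280 to 20674321, plus strand, mm10, 4 exons) was the most abundant of the genes in *Bbs8*-/- RPE. Its level was 21446, 20173, 21005 and 21104 CPM in *Bbs8*+/+ libraries 1 to 4, and 33222, 29945, 32344 and 31480 CPM in *Bbs8*-/- libraries 1 to 4. All *Bbs8*-/- libraries lay above all *Bbs8*+/+ libraries, with a gap far wider than the spread inside either genotype. The means were 20932 ± 539.9 and 31748 ± 1397 CPM (SD, n = 4) and the log2 fold change was 0.60 (SE 0.0355; fold 1.52, 95% interval 1.44 to 1.59; adjusted p = 3.35e-16 with edgeR's quasi-likelihood test). By counts, *Ttr* was the 4th gene of every *Bbs8*+/+ library and the 2nd of every *Bbs8*-/- library. In bulk RNA, fewer cells of a type cannot be told apart from less RNA per cell, here or for any gene described next. Relative to the RPE marker sum, *Ttr* stood at 984 ± 30.2 CPM per 1000 CPM of RPE markers in *Bbs8*+/+ and 1543 ± 53.5 in *Bbs8*-/-, a ratio of 1.57. The part of the lower photoreceptor, lens and erythrocyte sums and of the higher glial sums in this difference was not tested.

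*Rbp4* (ENSMUSG00000024990, chromosome 19, 38116629 to 38125281, minus strand), whose protein partners transthyretin in plasma, was barely detected. It had 10, 0, 1 and 6 counts in *Bbs8*+/+ libraries 1 to 4 and 5, 3, 0 and 6 counts in *Bbs8*-/- libraries 1 to 4. In each genotype 2 libraries were above the floor of 3 counts. Pooled, 17 counts of *Bbs8*+/+ gave 1.53 CPM (exact Poisson 95% interval 0.891 to 2.45) and 14 counts of *Bbs8*-/- gave 1.36 CPM (0.746 to 2.29), intervals that cover counting error only. A difference between genotypes was not detectable at this depth (adjusted p = 0.942), and the fitted log2 fold change of −0.21, which depends on the prior count, gives no direction. *Rbp4* ranked between 10532 and 14383 by counts within a library, while the transthyretin transcript was in the top 4.

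*Apoe* (ENSMUSG00000002985, chromosome 7, 19696109 to 19699188, minus strand), the lipid carrier, had 4591.05, 3990.0, 3717 and 4142 CPM in the *Bbs8*+/+ libraries and 4590.15, 5027, 4961 and 4848 CPM in the *Bbs8*-/- libraries. The genotypes touched at a single point, since *Bbs8*+/+ library 1 and *Bbs8*-/- library 1 were within 1 CPM of each other. Without *Bbs8*+/+ library 1 the highest *Bbs8*+/+ value was 4142 CPM, the genotypes did not overlap and the log2 fold change was 0.30 (adjusted p = 3.93e-07). The means were 4109.9 ± 366 and 4856 ± 192 CPM (SD, n = 4) and the log2 fold change was 0.24 (SE 0.0553; fold 1.18, 95% interval 1.09 to 1.28; adjusted p = 0.00198 with edgeR's quasi-likelihood test). The difference missed the threshold with edgeR's likelihood ratio test (adjusted p = 0.0609). Relative to the RPE marker sum, *Apoe* was at 193 ± 19.1 and 236 ± 11.3 CPM per 1000 CPM of markers. The genotypes did not overlap on that scale, but only by the gap between 218.7 in *Bbs8*+/+ library 1 and 220.0 in *Bbs8*-/- library 1. The marker sum itself was lower in every *Bbs8*-/- library. *Apoe* is also a marker of Müller glia and microglia, and the Müller glia sum was higher in *Bbs8*-/- by a ratio of 1.13 while the microglia sum overlapped. Their part in the *Apoe* difference was not tested.

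*Clu* (ENSMUSG00000022037, chromosome 14, 65968483 to 65981547, plus strand), the extracellular chaperone, showed a wider gap than *Apoe*. Its levels were 4920.4, 4628, 4292 and 4661 CPM in *Bbs8*+/+ and 6437, 6462, 6787 and 6436.5 CPM in *Bbs8*-/-. No library of one genotype reached the range of the other. The means of 4625 ± 258 and 6531 ± 171 CPM gave a log2 fold change of 0.50 (SE 0.0488; fold 1.41, 95% interval 1.32 to 1.51; adjusted p = 3.58e-10 with edgeR's quasi-likelihood test). *Clu* moved from places 15 to 20 by counts in *Bbs8*+/+ to place 11 in every *Bbs8*-/- library. Within each library the ratio of *Clu* to *Apoe* counts was 1.07 to 1.16 in *Bbs8*+/+ and 1.29 to 1.40 in *Bbs8*-/-, so the 2 transcripts did not rise by the same factor. *Clu* is expressed by Müller glia too, and the part of the higher glial marker sums in its difference was not tested.

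*Enpp2* (ENSMUSG00000022425, chromosome 15, 54838901 to 54952892, minus strand), the gene of autotaxin, was the only one of the 8 that fell. It stood at 2586, 2574, 2629 and 2699 CPM in *Bbs8*+/+ libraries 1 to 4 and at 1719, 1665, 1636 and 1471 CPM in *Bbs8*-/- libraries 1 to 4. The lowest *Bbs8*+/+ value was well above the highest *Bbs8*-/- value. Mean expression was 2622 ± 56.7 CPM in *Bbs8*+/+ and 1623 ± 107 CPM in *Bbs8*-/- (SD, n = 4) and the log2 fold change was −0.69 (SE 0.0596; fold 0.619, 95% interval 0.569 to 0.673; adjusted p = 1.49e-11 with edgeR's quasi-likelihood test). A non-coding gene on the plus strand, *Gm26684*, overlaps its locus. Per 1000 CPM of RPE markers *Enpp2* was at 123 ± 2.25 and 78.9 ± 4.35 CPM, a ratio of 0.640 between genotypes beside the fold of 0.619 against the whole library. The part of the lower photoreceptor, lens and erythrocyte sums in its difference was not tested.

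*Cst3* (ENSMUSG00000027447, chromosome 2, 148871722 to 148875692, minus strand), the cathepsin inhibitor, had 3866, 7171, 7475 and 6786 CPM in *Bbs8*+/+ libraries 1 to 4 and 8539, 8017, 8537 and 8167 CPM in *Bbs8*-/- libraries 1 to 4. The genotypes did not overlap, but *Bbs8*+/+ library 1 lay far under its 3 companions. With it, the means were 6324 ± 1663 and 8315 ± 265 CPM (SD, n = 4) and the log2 fold change 0.39 (SE 0.0965; fold 1.31, 95% interval 1.15 to 1.51; adjusted p = 0.00379 with edgeR's quasi-likelihood test). Without it, the *Bbs8*+/+ mean was 7144 ± 345 CPM (n = 3), the log2 fold change 0.22 and the fold 1.16 (adjusted p = 1.49e-05). The direction and the call held both ways, and the size of the difference rested on that library. DESeq2 did not call *Cst3* (adjusted p = 0.149). In *Bbs8*+/+ library 1 its log2 departure from the other 3 was −0.88, and that of *Slc20a2*, the lowest gene there, was −2.64.

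*Ptgds* (ENSMUSG00000015090, chromosome 2, 25466709 to 25470046, minus strand), the lipocalin synthase, was the most abundant of the genes in *Bbs8*+/+ RPE and had the smallest estimated difference between genotypes. It was at 25892, 23317, 23393 and 25172 CPM in *Bbs8*+/+ and at 24603, 25989.6, 26083 and 25147 CPM in *Bbs8*-/-. The ranges overlapped from 24603 to 25892 CPM. The means of 24443 ± 1291 and 25456 ± 707 CPM differed by a log2 fold change of 0.06 (SE 0.0369; fold 1.04, 95% interval 0.989 to 1.10; adjusted p = 0.364 with edgeR's quasi-likelihood test). Without *Bbs8*+/+ library 1 the log2 fold change was 0.09 (adjusted p = 0.0443), and with scaling by library size alone it was 0.15 (adjusted p = 0.00232). In the fit with TMM scaling and all libraries, a fold above 1.10 lay outside the interval.

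*Sparc* (ENSMUSG00000018593, chromosome 11, 55394500 to 55423183, minus strand), the collagen-binding glycoprotein, was the lowest of the genes above the floor, at places 88 to 141 by counts. Its levels were 799, 637, 645 and 726 CPM in *Bbs8*+/+ and 739.8, 763, 734 and 720.2 CPM in *Bbs8*-/-. All *Bbs8*-/- values lay inside the *Bbs8*+/+ range, and their SD was smaller, at 17.6 against 76.1 CPM. The top of that range was *Bbs8*+/+ library 1. Without that library the *Bbs8*+/+ range was 637 to 726 CPM (SD 49.2, n = 3), and only *Bbs8*-/- library 4, at 720.2 CPM, lay inside it. The log2 fold change was then 0.14 (adjusted p = 0.199 with edgeR's quasi-likelihood test). The means of 702 and 739 CPM gave a log2 fold change of 0.07 (SE 0.0774; fold 1.05, 95% interval 0.944 to 1.17; adjusted p = 0.630 with edgeR's quasi-likelihood test). *Sparc* is a marker of fibroblasts and endothelium, whose summed markers also overlapped between genotypes, those of fibroblasts only through *Bbs8*+/+ library 1.

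**Figure D2:**
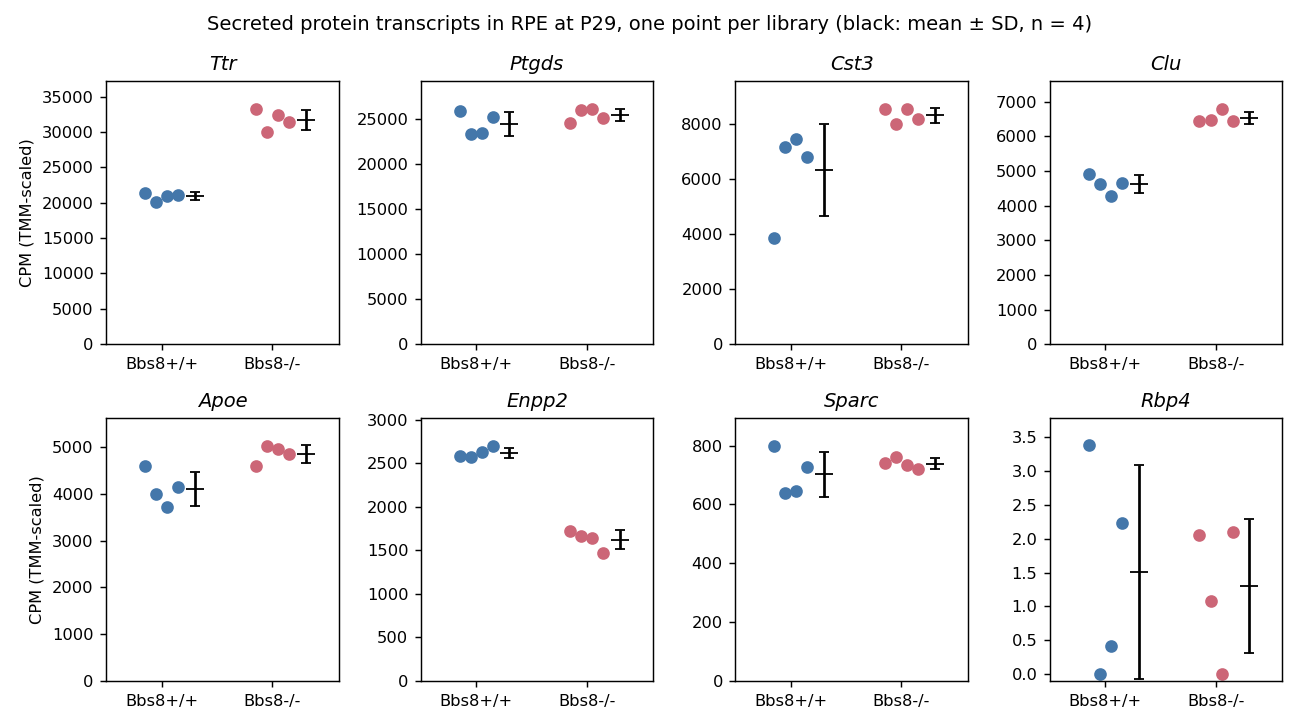
CPM scaled by TMM (y axis, from 0 except for *Rbp4*, where the error bar runs below 0) of each gene in the libraries of each genotype (x axis), with 1 point per library and black bars for the mean and SD (n = 4). *Ttr*, *Clu* and *Cst3* were higher and *Enpp2* lower in all *Bbs8*-/- libraries, and the *Bbs8*+/+ point at 3866 CPM of *Cst3* is library 1.

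Counted together, 4 of the 8 genes were called higher and 1 lower. That compares with 5.46% and 6.8% of all genes tested, but the genes were picked with these data known and nothing is read from the excess. For 4 of the 8 (*Ttr*, *Clu*, *Enpp2* and *Cst3*) the genotypes did not overlap, which was so for 16% of all genes tested. Without *Bbs8*+/+ library 1, *Apoe* made it 5 of 8, against 20.3% of all genes. Relative to the RPE marker sum *Apoe* did not overlap with all libraries, by a narrow gap. The share of all genes on that scale was not computed. The median log2 fold change of the 8 genes was 0.16 with the floor-level value of *Rbp4* and 0.24 without it, against 0.02 for all genes. Ordered by size, the differences ran from *Ttr* (0.60) through *Clu* (0.50), *Cst3* (0.39) and *Apoe* (0.24) to *Sparc* (0.07) and *Ptgds* (0.06), with *Enpp2* at −0.69. Without *Bbs8*+/+ library 1 *Cst3* (0.22) came after *Apoe* (0.30), so their order rests on that library. With all libraries, the 95% intervals of *Ttr* and *Clu* overlapped, and so did those of *Clu* and *Cst3* and those of *Cst3* and *Apoe*.

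**Figure D3:**
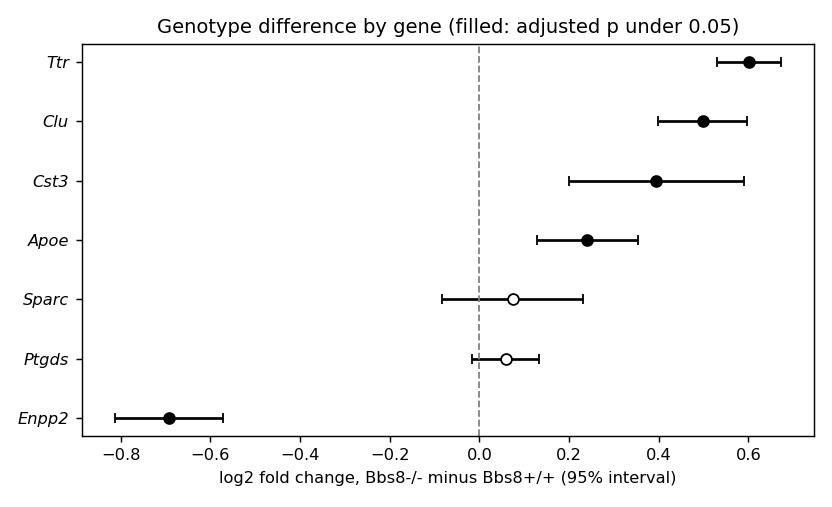
Log2 fold change of *Bbs8*-/- over *Bbs8*+/+ (x axis) for the genes above the floor (y axis, without *Rbp4*), with 95% intervals from edgeR's fit and filled points for an adjusted p under 0.05. The interval of *Cst3*, 0.20 to 0.59, is the widest, and those of *Sparc* and *Ptgds* include 0.

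The spread between libraries of a genotype was small for most of the genes above the floor, and *Rbp4* is left out of what follows. The coefficient of variation in *Bbs8*+/+ was 2.16% for *Enpp2*, 2.58% for *Ttr*, 5.28% for *Ptgds*, 5.58% for *Clu*, 8.90% for *Apoe*, 10.8% for *Sparc* and 26.3% for *Cst3*. In *Bbs8*-/- it ran from 2.38% for *Sparc* to 6.59% for *Enpp2*, with *Cst3* at 3.18%. The genes did not move as a block from library to library. *Bbs8*+/+ library 1 was the highest of its genotype for *Apoe* (0.22 above the other 3 on the log2 scale), *Sparc* (0.26), *Clu* (0.12) and *Ptgds* (0.11), and the lowest for *Cst3* (−0.88). *Bbs8*+/+ library 3 was the lowest for *Apoe* (−0.19) and *Clu* (−0.14) and the highest for *Cst3* (0.38). In *Bbs8*-/-, library 4 was the lowest for *Enpp2* (−0.19), while its *Ttr* (−0.01) and *Clu* (−0.03) were close to the other 3.

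By structure the genes have little in common. In the GRCm38 annotation their spans run from 3080 bp (*Apoe*) and 3338 bp (*Ptgds*) to 113992 bp (*Enpp2*). The longest coding transcript has 860 nt in *Cst3*, 901 nt in *Ptgds*, 1186 nt in *Ttr* and 3095 nt in *Enpp2*, and coding transcripts have at most 3 exons in *Cst3* and 26 in *Enpp2*. *Ptgds* and *Cst3* lie on the same chromosome, far apart, and the other six on chromosomes of their own.

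As a share of all gene counts, the 8 genes together held 6.12%, 6.12%, 6.19% and 6.29% of the *Bbs8*+/+ libraries and 8.14%, 7.98%, 8.39% and 8.19% of the *Bbs8*-/- libraries. The means were 6.18% ± 0.0819 and 8.17% ± 0.169 (SD, n = 4), and no test was made, since the genes were chosen for their levels. *Ttr* alone went from 1.98% to 2.06% of counts up to 3.07% to 3.39%. *Ptgds* held 2.28% to 2.47% and 2.51% to 2.70%. QuantSeq reads the transcript end, so that counts were not divided by length, and levels of different genes can be compared only as far as their ends were primed and mapped alike.

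Ratios within a library do not depend on its scaling. The count ratio of *Ttr* to *Ptgds* was 0.828, 0.865, 0.898 and 0.838 in *Bbs8*+/+ libraries 1 to 4 and 1.35, 1.15, 1.24 and 1.25 in *Bbs8*-/- libraries 1 to 4. *Ptgds* thus led in every *Bbs8*+/+ library and *Ttr* in every *Bbs8*-/- library. For *Enpp2* over *Ttr* the ratio was 0.125 ± 0.00339 in *Bbs8*+/+ and 0.0512 ± 0.00366 in *Bbs8*-/-, the widest separation of the 7 ratios computed. *Enpp2* over *Ptgds* was 0.107 ± 0.00550 and 0.0638 ± 0.00470, and *Enpp2* over *Sparc* was 3.77 ± 0.389 and 2.19 ± 0.117, both without overlap. The ratios *Cst3* over *Clu* (0.786 to 1.74 in *Bbs8*+/+, 1.24 to 1.33 in *Bbs8*-/-) and *Apoe* over *Cst3* overlapped. Without *Bbs8*+/+ library 1 the first was 1.46 to 1.74 in *Bbs8*+/+ and no longer overlapped, and the second, at 0.497 to 0.610 against 0.538 to 0.627, still did.

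**Figure D4:**
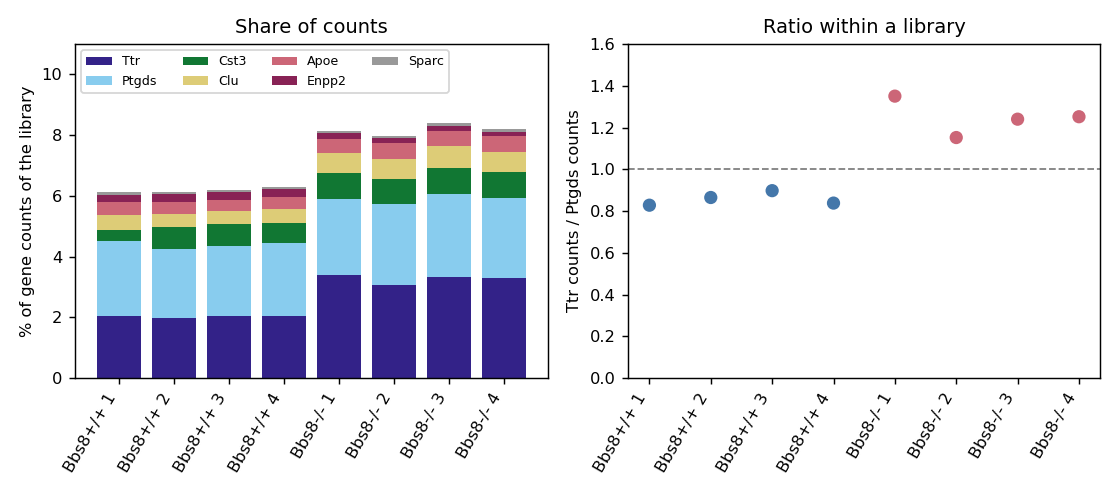
Left, the share of gene counts (y axis, percent) that each gene held in each library (x axis), stacked, without *Rbp4*, which is too low to draw. Right, the ratio of *Ttr* to *Ptgds* counts per library, with a dashed line at equality, which all *Bbs8*+/+ libraries (0.828 to 0.898) were under and all *Bbs8*-/- libraries (1.15 to 1.35) over.

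The genes whose log2 CPM followed each of them most closely over the 8 libraries, among 3285 other genes averaging 50 CPM or more, are given as a description, since all points share the same libraries and a pair of genotypes. *Ttr* ran with the non-coding RNA *Neat1* (Pearson r = 0.997) and with *Pcolce*, an enhancer of procollagen processing (0.993). *Clu* ran with the metallothionein *Mt1* (0.993) and the cargo receptor *Lman1* (0.986). *Enpp2* ran with *Zbtb44* (0.996) and the membrane skeleton gene *Add1* (0.994), both of which fell. *Cst3* ran with *Slc20a2* (0.995) and *Cox7c* (0.993), which were among the lowest genes of *Bbs8*+/+ library 1, at departures of −2.64 and −1.92. *Apoe* ran with *Ccnl1* (0.973) and *Sema3b* (0.955), *Ptgds* with *Serp1* (0.951) and *Tmem205* (0.943), and *Sparc* with *Rapgef3* (0.949) and *Meg3* (0.947). The last 4 of these were not called between genotypes.

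Genes that work with the 8 proteins were grouped in 10 lists by role. Of the 136 genes on them 115 were tested, 16 were higher and 15 lower (27.0%, against 12.3% of all genes), and the median log2 fold change was 0.06. At an unadjusted p under 0.05 the share of all genes was 23.4%, against which the unadjusted counts of each list are to be read. The lists were written with earlier results of these data known, and their counts are given as a description.

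**Figure D5:**
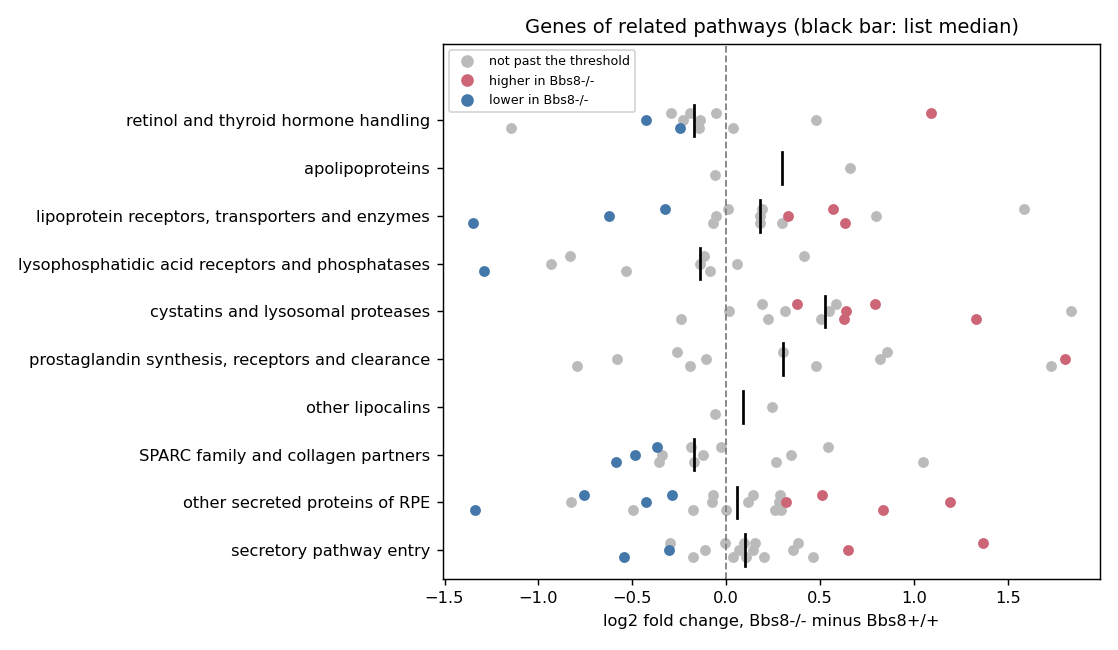
Log2 fold change (x axis) of every tested gene of the 10 lists (y axis), grey where it did not pass the threshold, red where higher and blue where lower in *Bbs8*-/-, with a black bar at the median of each list. The cystatin and protease list, at a median of 0.52, has 5 red points and no blue one, and most other lists lie on both sides of 0.

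Retinol and thyroid hormone handling sits on the receiving side of transthyretin and its partner. Of 15 genes 12 were tested, with 1 higher, 2 lower and a median of −0.17, and at an unadjusted p under 0.05 there were 1 and 4. *Stra6*, the membrane receptor of the retinol-binding protein, fell from 387 ± 15.8 to 288 ± 10.4 CPM (log2 fold change −0.43, adjusted p = 3.34e-04). *Rpe65*, the retinoid isomerase of the visual cycle, fell from 4639.7 ± 211 to 3916 ± 38.1 CPM (−0.24, adjusted p = 4.67e-04). *Ttr* rose while the receptor for its retinol-carrying partner fell. *Crym*, which binds thyroid hormone in the cytosol, was higher (1.09, adjusted p = 0.0499), and without *Bbs8*+/+ library 1 it was not called (adjusted p = 0.155). It was called in 7 of 18 alternatives. The thyroid hormone receptors *Thra* (−0.19) and *Thrb* (−0.29) did not pass the threshold.

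Other apolipoproteins were scarce. Of 9 genes only *Apod* and *Apoc3* were tested, with log2 fold changes of −0.06 and 0.66, no call and no unadjusted p under 0.05, and *Apoa4*, *Apob* and *Apoc2* had 0 counts in all libraries. Among 16 lipoprotein receptors, transporters and enzymes 15 were tested, 3 were higher, 3 were lower and the median was 0.18, with 5 and 3 at an unadjusted p under 0.05. *Lrp2*, the endocytic receptor megalin, which takes up clusterin and transthyretin, rose from 91.7 ± 4.52 to 136 ± 5.81 CPM (log2 fold change 0.57, adjusted p = 5.85e-04). *Sorl1*, a sorting receptor, rose (0.33, adjusted p = 0.0277), as did the cholesterol exporter *Abca1* (0.63, adjusted p = 0.0324), although *Abca1* was not called without *Bbs8*+/+ library 1 (adjusted p = 0.0852). *Sorl1* was called in 11 of 18 alternatives and *Abca1* in 12 of 18. With 1 library left out the adjusted p of *Sorl1* reached 0.0755 with edgeR's quasi-likelihood test. *Pltp*, which transfers phospholipids between lipoproteins, fell from 367 ± 15.5 to 238 ± 11.5 CPM (−0.62, adjusted p = 1.26e-06). The exporter *Abcg1* (−1.35, adjusted p = 0.0274) and the receptor *Vldlr* (−0.33, adjusted p = 0.0158) were also lower, the latter not with scaling by library size alone (adjusted p = 0.0982). *Lrp1*, a receptor that binds apolipoprotein E, was at 0.18 and not called.

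Among 12 genes of lysophosphatidic acid signalling, the product of autotaxin, 9 were tested, 1 was lower and none was higher, with 0 genes higher and 1 lower also at an unadjusted p under 0.05. That 1 was *Plpp2*, a phosphatase that degrades lysophosphatidic acid, at 156 ± 3.69 CPM in *Bbs8*+/+ and 63.9 ± 14.5 CPM in *Bbs8*-/- (log2 fold change −1.29, adjusted p = 3.33e-09). Transcripts of a producing and of a degrading enzyme were therefore both lower. The receptor with the highest level, *Lpar1*, was at 46.4 ± 11.8 and 43.0 ± 9.89 CPM (−0.12) and was not called, and *Lpar5* had 0 counts.

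Cystatins and lysosomal proteases, the targets and relatives of cystatin C, were all tested (14 genes), with 5 higher, none lower and a median of 0.52. At an unadjusted p under 0.05, 8 were higher and 0 lower. *Ctss* rose from 15.04 ± 0.679 to 37.8 ± 9.29 CPM (log2 fold change 1.33, adjusted p = 7.08e-05), *Ctsc* from 70.1 ± 15.8 to 121 ± 9.56 CPM (0.79, adjusted p = 1.06e-04) and *Cstb*, an intracellular cystatin, from 54.9 ± 8.57 to 85.3 ± 22.1 CPM (0.64, adjusted p = 0.00723). *Ctsl* and *Ctsb* were the other two called, at 0.63 and 0.38. *Ctsd*, the most abundant protease of the list and an aspartic protease that cystatins do not inhibit, was at 2308 ± 304 and 2634 ± 74.9 CPM and missed the threshold (0.19, adjusted p = 0.0539). It was called without *Bbs8*+/+ library 1 (0.28, adjusted p = 2.93e-05) and with library size alone (adjusted p = 0.00237). *Ctss* is also a microglial marker. The summed microglia and macrophage markers, *Ctss* included, were 371 to 486 CPM in *Bbs8*+/+ and 373 to 413 CPM in *Bbs8*-/-.

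Around *Ptgds*, prostaglandin synthesis, receptors and clearance counted 16 genes with 11 tested, 1 higher, none lower and a median of 0.30. At an unadjusted p under 0.05 the counts were again 1 and 0. *Ptgs1*, the cyclooxygenase that supplies the substrate of *Ptgds*, rose from 12.2 ± 2.75 to 42.9 ± 5.31 CPM (log2 fold change 1.81, adjusted p = 2.98e-07), while *Ptgs2* (−0.58) and the synthase *Ptges* (0.30) were not called. *Hpgds*, the other prostaglandin D synthase, was at 1.39 ± 1.86 and 2.41 ± 2.01 CPM, and of the receptors for its product *Ptgdr* was too low to test and *Ptgdr2* had 0 counts. Of the 5 other lipocalins listed, *Apod* and *Lcn2* were tested and not called, and *Orm1* and *Orm2* had 0 counts.

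The SPARC family and its collagen partners gave 13 tested genes, 3 lower, none higher and a median of −0.17, with 4 lower and 0 higher at an unadjusted p under 0.05. *Fstl1*, a secreted relative of SPARC, fell from 134 ± 10.99 to 88.7 ± 17.5 CPM (log2 fold change −0.59, adjusted p = 0.00179). *Col3a1* (−0.49) and *Col1a1* (−0.37) fell too (adjusted p = 0.0183 for each), and neither was called with scaling by library size alone (adjusted p = 0.0685 and 0.0956). These collagens are fibroblast markers. The fibroblast sum over 9 genes, the collagens included, was 1165 to 1568 CPM in *Bbs8*+/+ and 1120.4 to 1280.3 CPM in *Bbs8*-/-. Without *Bbs8*+/+ library 1 it was 1443 to 1568 CPM in *Bbs8*+/+, above every *Bbs8*-/- library. The part of fibroblast RNA was not tested.

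Of 20 other proteins secreted by RPE, all tested, 4 were higher, 4 were lower and the median was 0.06, with 5 and 6 at an unadjusted p under 0.05. *Trf*, the iron carrier transferrin, rose from 5107 ± 216 to 7266 ± 119 CPM (log2 fold change 0.51, adjusted p = 5.77e-11), close in level and in size of the difference to *Clu*. *Tgfb2* (1.19, adjusted p = 2.22e-05), *Dkk3* (0.83, adjusted p = 2.98e-05) and *Sfrp1* (0.32, adjusted p = 0.00396), which encode a growth factor and regulators of Wnt signalling, rose as well. *Dkk3* is also among the Müller glia markers, and their higher sum includes *Dkk3* itself. *Vtn*, the adhesion protein vitronectin, fell from 417 ± 55.5 to 165 ± 10.8 CPM (−1.34, adjusted p = 2.66e-13). *Mfge8*, a bridge between RPE and shed outer segments, fell from 445 ± 40.2 to 263 ± 35.9 CPM (−0.76, adjusted p = 1.27e-07), and *Igfbp5* (−0.43, adjusted p = 1.44e-04) and *Bmp4* (−0.29, adjusted p = 0.0219) were lower, the latter not with library size alone (adjusted p = 0.141). *Timp3*, an inhibitor of metalloproteinases close to *Clu* in level in *Bbs8*+/+, was at 5000.04 ± 98.7 and 4751 ± 149 CPM and was not called (−0.07, adjusted p = 0.381).

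The machinery that takes secreted proteins into the endoplasmic reticulum gave 18 tested genes, 2 higher, 2 lower and a median of 0.10, with 3 and 2 at an unadjusted p under 0.05. The signal peptidase subunits *Spcs1* (58.4 ± 8.15 to 91.3 ± 11.4 CPM, log2 fold change 0.65, adjusted p = 0.00194) and *Spcs3* (1.37, adjusted p = 0.0142) rose. *Spcs3* was not called without *Bbs8*+/+ library 1 (adjusted p = 0.0508). The signal recognition particle subunit *Srp72* fell from 157 ± 7.64 to 108 ± 10.7 CPM (−0.54, adjusted p = 7.20e-04), and the translocon-associated *Ssr1* fell (−0.30, adjusted p = 0.0474) but not with scaling by library size alone (adjusted p = 0.189). *Ssr1* was called in 8 of 18 alternatives. The translocon channel genes *Sec61a1* and *Sec61b* were at −0.11 and −0.01 and were not called.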

How the data were processed

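RNA of RPE isolated at P29 was measured in 4 *Bbs8*+/+ and 4 *Bbs8*-/- QuantSeq 3′ libraries, grouped by their labels. The authors trimmed reads with BBDuk, aligned them to mm10 with STAR and counted them per gene with htseq-count on Ensembl models, and deposited unique read counts for each library, unnormalized. Summary lines that name no gene were left out. Symbols (30934 identifiers matched) and coordinates came from GRCm38 annotation.

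Genes at 1 CPM or more in 4 or more libraries were compared with edgeR 4.0.16 in R 4.3.3 (TMM, quasi-likelihood F test, two-sided), adjusted by Benjamini-Hochberg over 12889 genes, with a threshold of 0.05. The filter on multi-mapping of the paper was not repeated. CPM are TMM-scaled. On simulated counts (12543 genes), 22 of 23 genes changed 2-fold and 7 of 17 changed 1.5-fold were recovered among those with over 100 counts. DESeq2 1.42.0, other tests, scalings, filters, thresholds and left-out libraries were alternatives.

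The members and lists were chosen with earlier results of these data known. The genes named were the 8, *Ttc8*, at most 3 per direction and list with the largest change past the threshold and a mean of at least 10 CPM, direct partners of a member, and for each member the 2 closest genes by correlation. *Timp3*, *Ctsb*, *Ctsl*, *Ctsd*, *Sfrp1*, *Bmp4*, *Ptgs2*, *Ptges*, *Sec61a1*, *Sec61b*, *Apoc3*, *Apod*, *Lcn2*, *Rlbp1*, the 5 cone genes and genes at 0 counts were added after their values were seen. Values of some listed genes are not reported here. Per the labels and the study each library is 1 animal.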

Additional observations from a re-analysis of the deposited data

Results flagged for a closer look

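Each of the 8 genes was examined in each genotype for a library far from its companions, 16 examinations in all, of which chance singles out about 1 in 20. A single value stood apart, *Clu* in *Bbs8*-/- library 3 at 6787 CPM. The next highest library was at 6462 CPM, the other 3 lay between 6436.5 and 6462 CPM and the gap took up 0.927 of the range of the group, more than Dixon's limit at 95%. All 4 libraries were above every *Bbs8*+/+ library, at 4292 to 4920.4 CPM. The low *Cst3* value of *Bbs8*+/+ library 1 (3866 CPM) did not pass this criterion.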

How the results depend on the processing

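*Ttr*, *Clu* and *Enpp2* kept their direction and call under every alternative. *Apoe* was not called with the likelihood ratio test (adjusted p = 0.0609) or against a fold of 1.2 (0.775), nor *Cst3* against a fold of 1.2 (0.218) or with DESeq2 (0.149). *Ptgds* was called with library size alone and without *Bbs8*+/+ library 1. *Rbp4*, near the floor, changed sign from −0.21 to 0.0028 with the replicate block, to 0.54 and 0.01 without *Bbs8*+/+ library 1 or 4 and to 0.18 without *Bbs8*-/- library 3 (−0.61 to 0.54 over all left-out libraries), never with a call, and DESeq2 gave it no adjusted p.

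Against a fold of 1.2 there were 353 genes higher and 494 lower, with 2 of the 8 higher, and at an adjusted p of 0.01 there were 394 and 571. Library size alone gave 1005 and 657 against 704 and 877, and moved the median of all genes by 0.09 on the log2 scale. Leaving out 1 library gave 553 to 645 higher and 689 to 847 lower. The share of counts on the 8 genes was 6.63% and 8.41% (*Bbs8*+/+ and *Bbs8*-/-) without photoreceptor, lens and erythrocyte genes, 6.38% and 7.93% of the effective library size, and 6.65% and 8.74% without mitochondrial genes. Same-numbered libraries did not deviate together (r from −0.056 to 0.0052). The labels do not say how the numbers were given, and this check cannot tell whether animals were paired. With the replicate block 650 genes were higher and 827 lower, with 4 and 1 of the 8 genes. Without *Bbs8*+/+ library 1, added after the data were seen, the retinol and thyroid list had 0 genes higher in place of 1 and the secretory entry list 1 in place of 2, while more were higher among proteases (7 for 5) and lipoprotein genes (4 for 3), and more were lower among retinol (3 for 2) and SPARC family genes (4 for 3). At these depths 9 of 50 simulated 1.5-fold changes were recovered.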
